A study of Homo sapiens with 2 samples.

Results

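Aminoacyl-tRNA synthetases are the enzymes that join each amino acid to its tRNA, and 36 of their genes were examined for contacts between their transcripts and DDX18, a nucleolar RNA helicase of the DEAD-box family. The genes were taken from a list of names, 20 for cytosolic enzymes or their subunits and 16 for mitochondrial enzymes, out of 20056 protein-coding genes in the gene table. All 36 were matched by gene identifier, 18 of them under a current name ending in 1 (AARS is now AARS1). A peak belonged to a member when the deposited peak name gave that gene as the one in which it was called, and 90 of the 17163 entries of the list did.

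The data came from iCLIP, in which ultraviolet light links a protein to the RNA it touches and the linked RNA is purified with the protein and sequenced. The cells were of the H9 line, which is an established line of human embryonic stem cells. They expressed DDX18 with a 3XFlag tag and were kept under normal culture on inactivated mouse fibroblasts (MEFs). They were irradiated with 160 mJ/cm2 at 254 nm, and the tagged protein was precipitated with an anti-Flag antibody. The group had 2 samples, which share 1 deposited list of significant peaks. No input or untagged sample was used here, so the study's question, which RNAs DDX18 contacts, is answered by peak positions and heights without a control.

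Each cytosolic enzyme charges tRNAs that serve the ribosomes of the cytosol. The mitochondrial enzymes are encoded by separate nuclear genes, made in the cytosol and imported. GARS and KARS are exceptions, since each gene makes the glycyl or lysyl enzyme of both compartments. Several cytosolic enzymes sit together in the multisynthetase complex, which is held by the scaffold proteins AIMP1, AIMP2 and EEF1E1.

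The list held 16095 distinct positions on hg19 with a median height of 8. Height is the authors' whole-number signal at a peak, and how it was computed is not given. It was not scaled here to depth or to the abundance of the RNA. The list has 1 height per peak for both samples, so the spread between the samples is unknown for every value here, as are the reads per sample. Of 6 stem cell markers 4 had a peak (LIN28A, L1TD1, DNMT3B and NANOG), and POU5F1 and SOX2 had none. Of 5 fibroblast markers 4 had one (THY1, COL1A1, COL1A2 and COL6A1), and VIM had none. Over all protein-coding genes the share with a peak was 31.0%. The stem cell markers with a peak ranged from 1 peak of height 5 in NANOG to 16 peaks each in LIN28A (highest 36) and DNMT3B (highest 23). Those of the fibroblast list ranged from 3 peaks in THY1 (highest 39) to 10 in COL6A1 (highest 26). Mouse reads from the fibroblasts were not separated here, and their part in the peaks of the synthetase genes was not tested.

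The highest peak in any synthetase gene lay in a small RNA inside IARS, the gene of the isoleucyl enzyme. It had a height of 112 and stood at chr9:95054762-95054763 on the minus strand, which is the strand of IARS. This point is 67 nt after the annotated start of MIR3651, a microRNA hairpin of 90 nt, and so falls within the mature hsa-miR-3651, which covers bases 64 to 87 of the hairpin. The gene table also places SNORA84, an H/ACA box snoRNA of 133 nt, over 87 nt of the same stretch of GRCh38.p14. SNORA84 starts 46 nt before the hairpin, so the peak lies 113 nt into it. The hairpin is shown because it holds this peak, from RefSeq on GRCh38.p14 (chr9:92292458-92292547, minus strand), with the mature microRNA in capitals.
MIR3651: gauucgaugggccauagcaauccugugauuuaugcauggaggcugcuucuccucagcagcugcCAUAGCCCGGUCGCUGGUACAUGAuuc
The peak cannot be assigned to the microRNA or to the snoRNA, because both genes cover it. Outside small RNA genes the highest peak of IARS was 16 and the highest of all members was 25, in AARS.

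Cytosolic synthetase genes were listed with a peak in 18 of 20 cases (90%, exact Clopper-Pearson 95% interval 68.3 to 98.8), against 31.0% of all protein-coding genes. Mitochondrial synthetase genes had one in 10 of 16 (62.5%, 35.4 to 84.8), 27.5 percentage points fewer. The intervals cover counting error only and they overlap. That background includes genes that the cells do not express, and expression was not measured in the list. No test was made, since genes of 1 list are not replicates. When each peak was given to the gene of the nearest start site instead, 11 cytosolic genes (55.0%) and 9 mitochondrial genes (56.3%) had one, so the direction turned (difference -1.25 percentage points). Under that rule 37 of the 69 cytosolic peaks (53.6%) went to another gene, such as the peaks of AARS nearest to EXOSC6, and so did 15 of the 21 mitochondrial peaks (71.4%). Of the 18 peaks then counted as mitochondrial 12 had been called in another gene, as had 2 of the 34 counted as cytosolic, and 4 mitochondrial genes kept a peak of their own.

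Several cytosolic members carried many peaks. At least 5 peaks were called in 7 of 20 cytosolic genes (35.0%) and in 2 of 16 mitochondrial genes (12.5%), against 3.66% of all protein-coding genes. GARS had 10 peaks, IARS and MARS 9 each, AARS, LARS and YARS 6 each, and NARS 5. Among mitochondrial members IARS2 and FARS2 had 5 each and SARS2 had 3. Of the 6218 protein-coding genes with a peak, 228 (3.67%) had at least as many as GARS. The 18 cytosolic genes with a peak averaged 3.83 peaks, the 10 mitochondrial ones 2.10, and all other protein-coding genes with a peak 2.58.

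**Figure D1:**
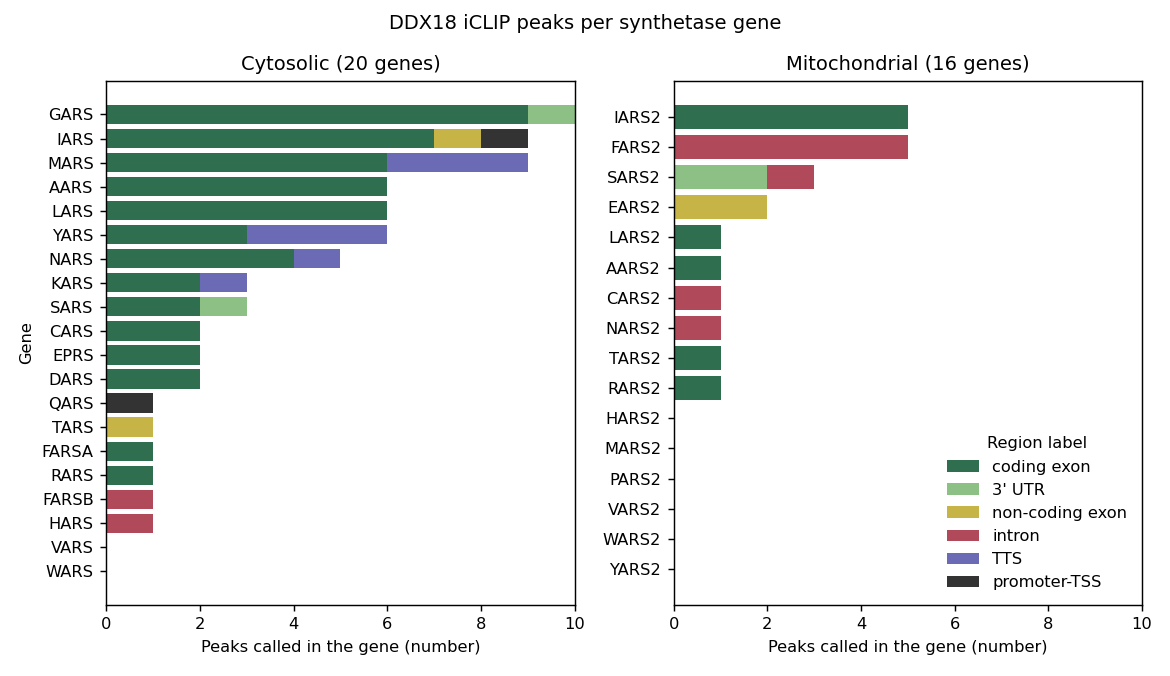
Number of peaks called in each of the 36 synthetase genes (horizontal axis), cytosolic on the left and mitochondrial on the right, coloured by the authors' region label. Green bars, for coding exons, make up most of the cytosolic peaks (53 of 69), whereas red bars, for introns, make up 8 of the 21 mitochondrial peaks.

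GARS, which charges glycine tRNAs, held the most peaks of all members, on chromosome 7. Its 10 heights were 14, 8, 13, 12, 8, 11, 12, 8, 8 and 12 from the start to the end of the gene, so no peak stood out. They lay in coding exons 4, 5, 6, 7, 8, 9, 10 and 13 of 17, with 2 peaks in exon 9, and in the 3' UTR. The highest, of 14, was at chr7:30640755-30640771 in exon 4.

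MARS, the methionyl enzyme, had 9 peaks on chromosome 12 with heights of 9, 15, 11, 12, 12, 22, 11, 13 and 12. The highest was in coding exon 8 of 21, at chr12:57892000-57892001. The first 6 were in coding exons 1, 2, 3, 6, 7 and 8. The last 3 carried the label TTS, which marks the stretch around the end of a transcript. In this case the ends were those of other genes, the microRNA gene MIR6758 for 2 peaks and the stress factor gene DDIT3 for 1. The first pair stood 141 and 237 nt after the start of MIR6758, whose hairpin is 63 nt long, and so outside it.

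AARS, the alanyl enzyme, held the highest coding peak of the members. It had a height of 25 and lay in coding exon 18 of 21, at chr16:70287885-70287887. The other 5 peaks, of 12, 9, 10, 12 and 18 in order of the genome coordinate, lay in exons 6, 4, 3, 2 and 2. No peak was listed from exon 7 to exon 17.

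IARS had 7 peaks in coding exons, of heights 14, 12, 9, 10, 8, 16 and 9 in exons 34, 29, 25, 19, 14, 7 and 3 of 34. A further peak of 8 was labelled a non-coding exon of an IARS transcript, and the small RNA peak of 112 was the ninth. Without it the summed height of IARS was 86 in place of 198, the same sum as that of AARS (86) and below that of GARS (106) and MARS (117).

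LARS, the leucyl enzyme, had 6 peaks, of 12, 8, 9, 8, 8 and 8, in coding exons 28, 23, 20, 19, 18 and 11 of 32. YARS, the tyrosyl enzyme, also had 6, of 8, 8, 11, 7, 8 and 7 in order of the genome coordinate. The first 3 were labelled with the transcript end of NHSL3, a neighbour, and the others lay in coding exons 11, 5 and 3 of 13. Listed heights thus ran from 8 to 12 in LARS and from 7 to 11 in YARS, where 3 of the 6 peaks were coding. Only significant peaks are in the list, so evenness along the coding sequence cannot be judged from these heights. NARS, for asparagine, had peaks of 11, 8, 8, 10 and 8. The highest of them was labelled with the end of its own transcript and the others lay in exons 12, 11, 5 and 4 of 14.

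**Figure D2:**
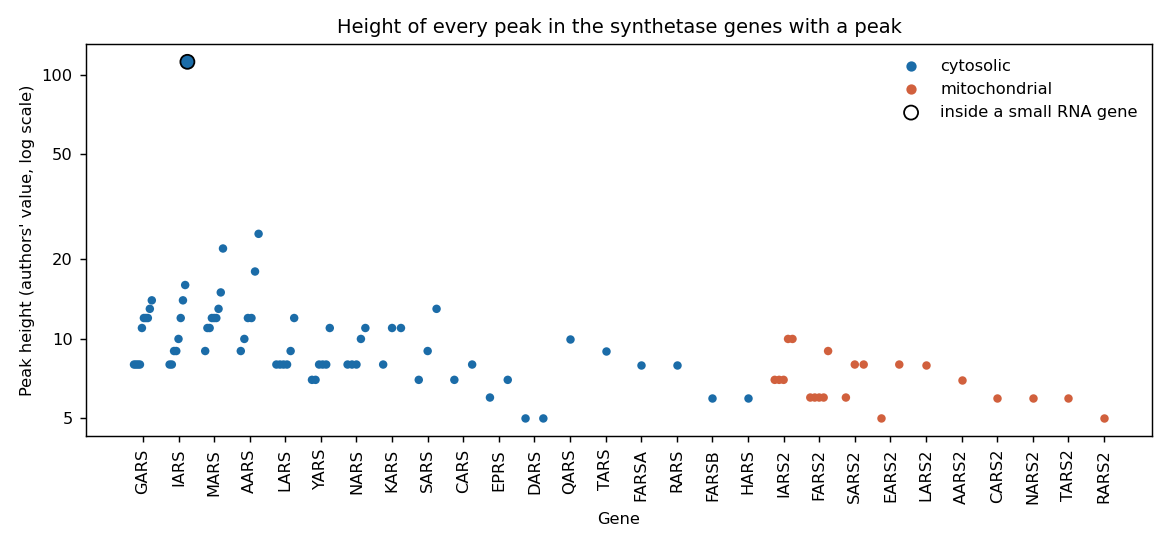
Height of every peak (vertical log scale) in the 28 synthetase genes with a peak, 1 column per gene, cytosolic in blue and mitochondrial in orange. All peaks but the ringed one, the IARS peak of 112 inside a small RNA gene, lie between 5 and 25.

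The other cytosolic members had 3 peaks or fewer. SARS, the seryl enzyme, had 3 of heights 9, 13 and 7 in coding exons 6 and 8 of 11 and in the 3' UTR. KARS, the lysyl enzyme, had 11, 8 and 11, at its transcript end and in coding exons 15 and 9 of 15. CARS (8 and 7), EPRS (6 and 7) and DARS (5 and 5), for cysteine, for glutamate with proline and for aspartate, had 2 each, all in coding exons. A single peak was called in QARS (10), TARS (9), RARS (8), FARSA (8), FARSB (6) and HARS (6). Those of FARSB, a subunit of the phenylalanyl enzyme, and of HARS, the histidyl enzyme, were intronic and lay in L2 repeats. The QARS peak carried the label promoter-TSS because it lay 701 nt before the start of MIR6890, a microRNA gene inside QARS. VARS and WARS, for valine and tryptophan, had none.

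By the multisynthetase complex, all 8 members EPRS, IARS, LARS, MARS, QARS, RARS, KARS and DARS had a peak, 33 in all with a median height of 10, beside 31.0% of all protein-coding genes and a median height of 8 in those outside the synthetases. Of the 12 other cytosolic genes 10 had one, with 36 peaks and a median height of 8.50. The median number of peaks per gene with a peak was 2.50 in both. Catalytic class I and class II have unrelated folds. A peak was listed for 13 of 19 class I genes (68.4%) and 15 of 17 class II genes (88.2%), with a median height of 8 in each. Among cytosolic genes these were 8 of 10 and 10 of 10, with medians of 9 and 9. Among mitochondrial genes they were 5 of 9 and 5 of 7, with medians of 7 and 6. EPRS was counted in class I, although its prolyl part belongs to class II.

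Mitochondrial members had fewer and lower peaks than cytosolic ones, and 6 of their 10 genes with a peak had just 1. Beside the whole protein-coding set they were not few. A peak was listed for 62.5% of them, where that set had 31.0%, and at least 5 for 12.5%, where it had 3.66%. Per gene with a peak, the median count was 1 both here and in protein-coding genes outside the synthetases. The means were 2.10 here and 2.58 there. IARS2, the mitochondrial isoleucyl enzyme, and FARS2 had the most, with 5 each. Those of IARS2 were all coding. Their heights were 7, 10, 7, 7 and 10, in exons 2, 3, 10, 11 and 18 of 23. The peak in exon 18, at chr1:220312441-220312444, and that in exon 3, at chr1:220273891-220273902, were the only mitochondrial ones to reach 10. Of these 5 positions 4 were also called under RNU5F-1, a U5 snRNA gene, with an expected height of 0.02 in place of 0.09 in IARS2. Expected height is the reading used here of a further entry of the deposited peak name, PH0. Another 4 positions in IARS2 exons 1, 2, 6 and 7, of heights 5, 6, 5 and 5, were called under RNU5F-1 alone and are not counted here. With them IARS2 exons held 9 peak positions. Entries called under RNU5F-1 in exons of EPRS and IARS2 ran from chr1:220197612 to chr1:220284193. That stretch is far longer than an snRNA gene, so the name does not place these peaks in the U5 snRNA.

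FARS2, the mitochondrial phenylalanyl enzyme, differed from IARS2 in that all of its 5 peaks were intronic. Their heights were 9, 6, 6, 6 and 6, in introns 1, 2, 6, 6 and 6 of 6. The highest lay in a simple repeat and 2 others in LINE repeats. FARS2 is the longest gene among the members, at 522 kb, and had the lowest expected height, 0.01.

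SARS2, for serine, had heights of 6, 8 and 8 in order of the genome coordinate. The first 2 peaks were in the 3' UTR and the last was in intron 5 of 15, in low-complexity sequence. EARS2, for glutamate, had 8 and 5, both in exon 9 of 10 of a non-coding transcript. LARS2 (8, exon 13 of 22), AARS2 (7, exon 1 of 22), TARS2 (6, exon 12 of 18) and RARS2 (5, exon 17 of 20) had 1 coding peak each. CARS2 (6, in an Alu element) and NARS2 (6, in a LINE element) had 1 intronic peak each. None was listed for HARS2, MARS2, PARS2, VARS2, WARS2 or YARS2. These 6 genes had a median length of 8.60 kb, from 3.03 kb for MARS2 to 109 kb for WARS2, against 63.0 kb for the 10 with a peak (14.6 to 522 kb). The part of gene length in these counts was not tested.

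Set side by side by amino acid, the cytosolic gene had more peaks in 9 of 16 pairs, the mitochondrial gene in 1 and neither in 6. The single exception was phenylalanine, where FARSA and FARSB together had 2 peaks and FARS2 had 5. The order in the isoleucine pair, 9 against 5, depends on the counting. The 9 of IARS include the small RNA peak, and the 5 of IARS2 leave out 4 exon positions called under RNU5F-1 alone. Counting those, IARS2 had 9 positions. The 4 were called with an expected height of 0.02 and had heights of 5 or 6. The lowest peak called under IARS2 was 7 and under IARS 8, so the 9 and 9 were not called alike. Valine and tryptophan had no peak in either compartment. Methionine, tyrosine, histidine and proline had peaks in the cytosolic gene alone, as MARS with 9 against MARS2 with 0 or YARS with 6 against YARS2 with 0. EPRS stands in both the glutamate and the proline pair. In the 10 pairs with a peak on both sides the highest peak was that of the cytosolic gene in 8, and EARS2 (8 against 7 in EPRS) and FARS2 (9 against 8 in FARSA) were the exceptions.

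**Figure D3:**
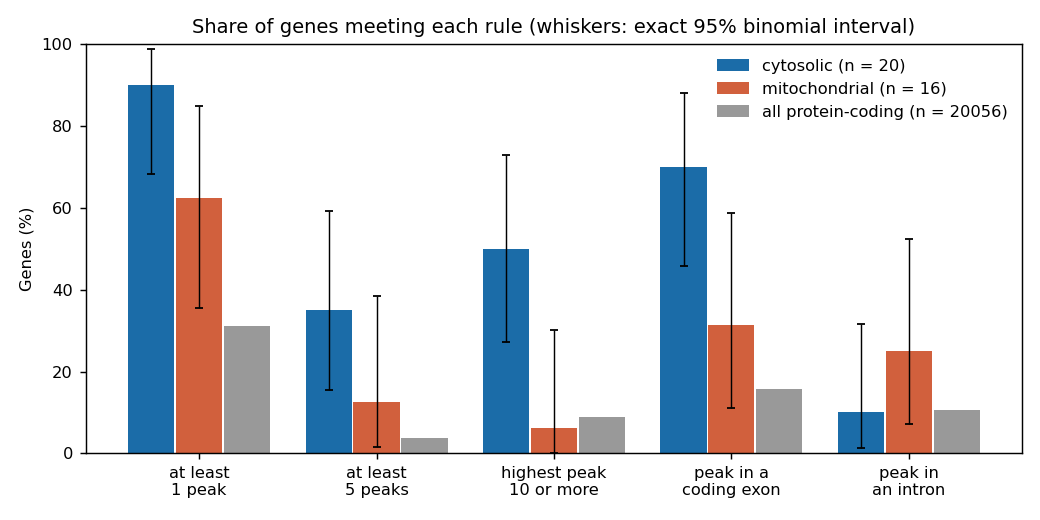
Percent of genes that met each of 5 rules, for 20 cytosolic genes (blue), 16 mitochondrial genes (orange) and all 20056 protein-coding genes (grey), with exact 95% binomial intervals on the member bars. Cytosolic genes stand above the grey bar in all rules but the intronic one, where they had 10% against 10.6%.

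Cytosolic peaks were also higher in this list, with no test made. Their median height was 9 (quartiles 8 and 12), that of mitochondrial peaks 7 (6 and 8), and that of all other protein-coding genes 8 (6 and 12). A height of 10 or more was reached by 32 of 69 cytosolic peaks and by 2 of 21 mitochondrial peaks. Counted by gene, 10 of 20 cytosolic genes (50%) and 1 of 16 mitochondrial genes (6.25%, IARS2) reached it, against 8.78% of all protein-coding genes.

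The expected height moved with this difference. PH0 is the same for every peak of a gene. Neither its definition nor how the authors computed it is given, and it is only read here as an expected height. Its median was 0.14 over the 18 cytosolic genes, from 0.02 in FARSB to 0.49 in QARS, and 0.035 over the 10 mitochondrial genes, from 0.01 in FARS2 to 0.09 in AARS2 and IARS2. The lowest listed height was 7 to 10 in the 13 members with an expected height of at least 0.1, all cytosolic, and 5 to 8 in the 15 others. QARS, with the highest expected height of the members, had a single peak. Relative to the expected height the order was the other way round, with a median ratio of the highest peak to it of 77.2 in cytosolic genes, 183 in mitochondrial genes and 150 in other protein-coding genes, leaving out 458 of these whose expected height is deposited as 0. In the 5 cytosolic genes with an expected height under 0.1 the median highest peak was 6 and the median ratio 117. In the mitochondrial genes, all under 0.1, the median highest peak was 7.5. Every member peak was at least 5 high, so a low expected height gives a large ratio in any case. The expected heights are deposited to 2 decimals, so these ratios are coarse for low values. The part of the expected height in the difference was not tested.

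**Figure D4:**
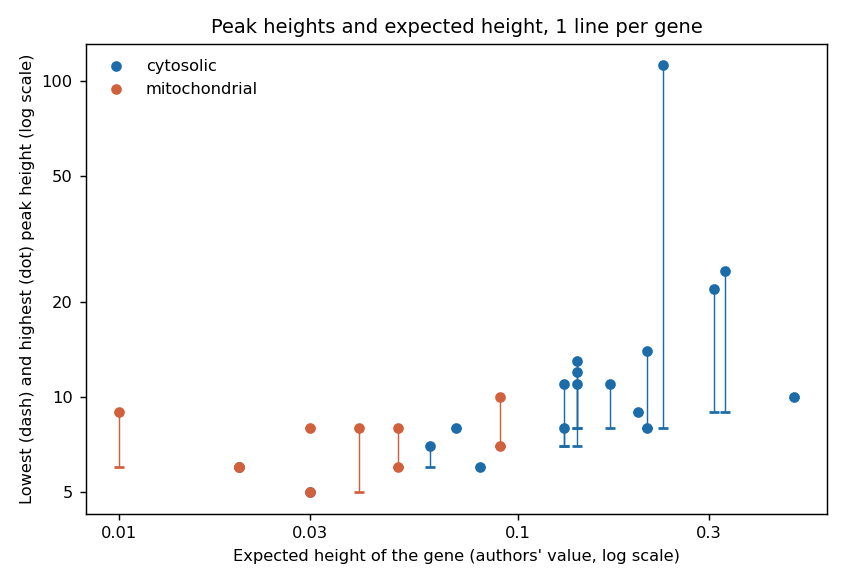
Lowest (dash) and highest (dot) peak height of each of the 28 synthetase genes with a peak against the expected height of the gene, both on log scales. The 13 genes at 0.1 or above are all cytosolic (blue) and their lowest peaks are 7 to 10, while genes below 0.1 start at 5 to 8. Some genes overlie each other, since expected heights are rounded.

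Synthetase peaks lay mainly in coding exons. These held 62 of 90 member peaks (68.9%, 58.3 to 78.2), against 47.2% of the peaks of all other protein-coding genes. Cytosolic genes had 53 of 69 there (76.8%, 65.1 to 86.1) and mitochondrial genes 9 of 21 (42.9%, 21.8 to 66.0). Counted by gene, 14 of 20 cytosolic (70.0%) and 5 of 16 mitochondrial genes (31.3%) had a coding peak, against 15.8% of all protein-coding genes. Peaks of 1 gene share its transcript, so these shares are not built from independent events.

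The 3' UTR held 4 of 90 member peaks (4.44%, 1.22 to 11.0), in GARS, SARS and SARS2, against 19.1% in other protein-coding genes. No member peak was labelled 5' UTR, which with 0 of 90 allows a share of up to 4.02% (upper limit of the exact interval), and the share elsewhere was 2.30%. The label TTS was given to 8 of 69 cytosolic peaks (11.6%), in MARS, YARS, NARS and KARS, against 5.42% elsewhere. HOMER gives that label before it looks at exons, and in MARS and YARS the labelled ends were those of other genes. These 8 were therefore not divided between coding exon, 3' UTR, intron and sequence beyond the transcript. Introns held 2 of 69 cytosolic peaks (2.90%) and 8 of 21 mitochondrial ones (38.1%, 18.1 to 61.6), against 17.9% elsewhere. An intronic peak was found in 2 cytosolic genes and 4 mitochondrial genes (25%), against 10.6% of all protein-coding genes. Of the 8 mitochondrial intronic peaks 5 were in FARS2, and 6 lay in named repeats.

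Within the coding sequence the peaks were spread over the transcripts. The 62 coding peaks occupied 60 distinct exons, since only AARS exon 2 and GARS exon 9 held 2. The median relative exon, that is the exon number over the number of exons, was 0.466 for members and 0.533 for other protein-coding genes. The first exon held 2 of the 62 (3.23%), in MARS and AARS2, against 4.73% of coding peaks in other protein-coding genes. The last also held 2 (3.23%), in IARS and KARS, against 10.5%. Of 62 pairs of neighbouring peaks in a gene, 5 lay within 100 nt of each other, and the median gap in the genome was 4338 nt, introns included. Peaks were narrow, with a median width of 7 nt in cytosolic and 14 nt in mitochondrial genes, against 13 nt in other protein-coding genes. The strand of 30 member genes was in the promoter table, and all 75 peaks in them were on the strand of the gene. This count cannot show contact with 1 strand only, because membership followed the called gene. A peak on the opposite strand of EPRS was called under RNU5F-1 and so was left out.

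**Figure D5:**
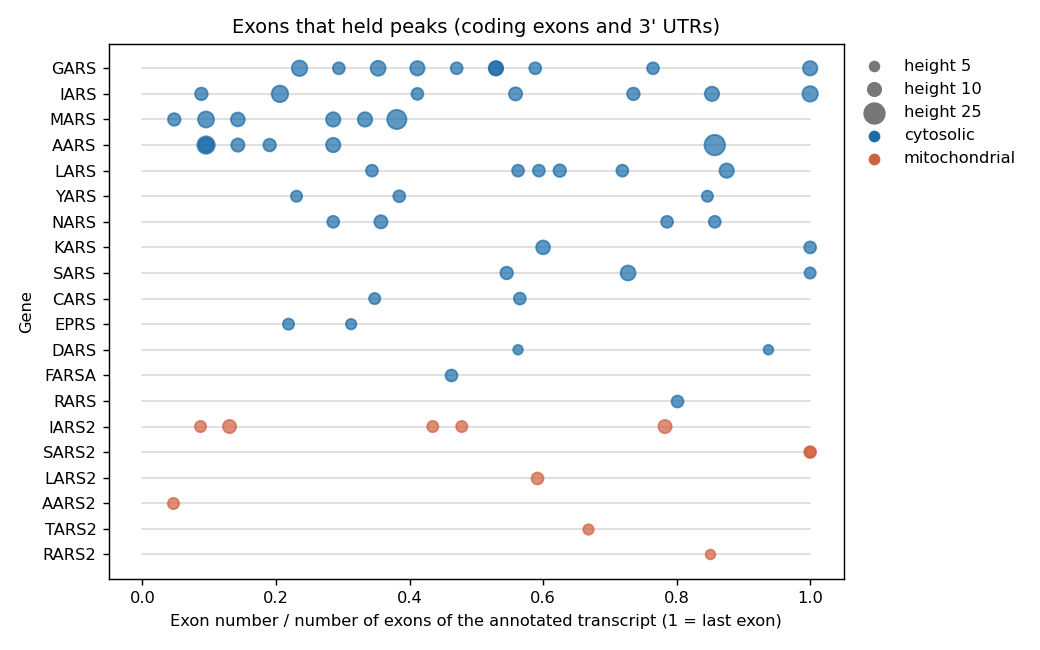
Exons with a peak in a coding exon or 3' UTR, as exon number over the number of exons (horizontal axis, 1 is the last exon), 1 row per gene, with the circle area growing with the height. GARS, IARS and LARS show peaks over many exons, and the largest circle of AARS, of height 25, lies in exon 18 of 21.

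Other genes of tRNA charging and handling had peaks at shares near that of all protein-coding genes. Of 13 further charging genes 4 had a peak (30.8%), among them SEPSECS, of the selenocysteine pathway (6), and GATC, a subunit of the mitochondrial amidotransferase (5). The scaffold genes AIMP2 (53 and 42) and EEF1E1 (45 and 39) had the highest peaks of that list, but both EEF1E1 peaks lay inside SCARNA27, a small Cajal body RNA gene. Those of AIMP2 lay in intron 2 of 3, and the gene table places SNORA80D, an H/ACA box snoRNA gene of 135 nt, inside AIMP2. Counted from the start of AIMP2, taken as the same in both annotations, the peak of 42 was 55 nt into SNORA80D and that of 53 at 139 nt, just past its end. AIMP1 had none.

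Of 13 genes of tRNA processing and export, 4 had a peak (30.8%). They were ELAC2, which trims tRNA 3' ends, with 4 (highest 9), XPOT, which exports tRNA, with 4 (highest 11), the tRNA ligase RTCB with 1 (16) and TSEN54, of the splicing endonuclease, with 1 (6). Both shares stand beside 31.0% of all protein-coding genes. EEF1A1, the factor that carries charged tRNA to the ribosome, had peaks of 79 and 32 in coding exons.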

How the data were processed

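The authors deposited 1 list of significant peaks for the 2 iCLIP samples of 1 group. Per the file header, it was annotated on hg19 with annotatePeaks.pl, a program of HOMER. Tools named in the submitters' processing notes are BWA and FastQC 0.10.1. For the peak caller and the significance rule, nothing is given in the sources used here. Height is a signal the authors deposited as whole numbers. The deposited p-value, an entry of each peak name, reaches 0.05.

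Peaks were assigned by the called gene. RefSeq's gene table (GRCh38.p14) gave names and lengths, never hg19 positions. The deposited distance to a start site follows the genome's direction (it rose with the coordinate for 808 of 808 minus-strand start sites), so it was turned by strand here. Intervals are exact 95% binomial intervals. No test was run. Members, lists and rules were chosen with earlier results of these data known. Every member with a peak was named. From the list of other charging genes, 1 gene is not reported here. Counting was tested on simulated data (8 of 8 summaries recovered). Python 3.11.15, pandas 2.3.3 and scipy 1.17.1 were used.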

Additional observations from a re-analysis of the deposited data

How the results depend on the processing

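Alternatives were a deposited p up to 0.01 or 0.001, heights of at least 10, the gene of the nearest start site, positions called in 1 gene, exons and UTRs only, peaks outside small RNAs and repeats, peaks within 20 nt merged, and GARS and KARS left out. Of 62 recomputed values 56 stayed within the interval of the reported one or within 1.5 times it. With heights of at least 10, the share with a peak was 50% of cytosolic and 6.25% of mitochondrial genes, a difference of 43.8 percentage points. With the nearest start site the cytosolic share was 55.0% and the difference turned to -1.25 percentage points. Under it 37 of 69 cytosolic and 15 of 21 mitochondrial peaks went to another gene, and 12 of the 18 then counted as mitochondrial came from other genes. With exons and UTRs only, coding exons held 88.6% of the peaks, since that setting drops introns and start and end labels. Merging changed no value, since no peaks lay within 20 nt. No replicate could be left out, and reads per sample are unknown. No paired analysis was possible because the list has 1 group and no value per replicate.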

Other observations

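Genes of the amino acid response, the pathway that senses uncharged tRNA through the kinase EIF2AK4 and its partner GCN1 and acts through the factor ATF4, were listed with a peak in 12 of 14 cases (85.7%), against 31.0% of all protein-coding genes. At least 5 peaks were called in 7 of them, against 3.66%. This list too was chosen with earlier results of these data known, and the background includes genes that the cells do not express. EIF2AK4 had 4 peaks (highest 11), GCN1 6 (highest 19) and ATF4 1 of height 15 in its coding sequence. The amino acid transporter gene SLC7A5 had 19 (highest 42), of which 12 were in the 3' UTR. Its partner SLC3A2 had 15 (highest 153), most of them labelled as non-coding exons. The serine pathway genes PHGDH and PSAT1 had 9 (highest 42) and 7 (highest 17), and the asparagine synthetase gene ASNS had 5 (highest 13). DDIT3 and TRIB3 had none.

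A peak of height 5 in coding exon 8 of 32 of EPRS, at chr1:220197612-220197652, was on the plus strand, opposite to EPRS, and was called under RNU5F-1. It is not among the 90 peaks of the synthetase genes.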
